A study of Mus musculus with 4 samples.

Results

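Genes of the major histocompatibility complex (MHC) that carry an H2- symbol, and the interferon-linked gene *Xaf1*, were examined in 46C mESCs, a mouse ESC line, treated with Go6983, a broad inhibitor of protein kinase C (PKC). The members are every protein-coding gene with a symbol beginning with H2- in the authors' deposited table, plus *Xaf1*. They number 5 of the 1577 genes of that table: *H2-Oa*, *H2-Ab1*, *H2-Q2*, *H2-M2* and *Xaf1*. The 2 groups were untreated cells (NT, 2 samples) and cells given 5 μM Go6983 for 24 h (2 samples), both grown in medium with serum. All samples come from the same line, and the labels do not say whether the samples of a group were separate cultures, so the spreads given here are spreads between these samples and may be technical.

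The members were selected on measured values of the comparison that is described here. The table lists only genes whose p-value in the authors' own test was below 0.05 (1577 of 1577 genes), and the smallest absolute log2 difference between the group means in it is 1.00. The values of the members are therefore a description, with no p-value, and differences are not evidence that these genes respond. Of the 34 protein-coding H2- genes in the GENCODE M21 annotation, 4 were in the table. The other 30 have no value there and were not analysed here. They include *H2-K1* and *H2-D1*, the classical class I genes, *H2-Aa*, the partner chain of *H2-Ab1*, and *H2-Ob*, the partner chain of *H2-Oa*. *H2-Q2* lies nearest to the 2-fold limit of the table, and genes just outside the limit were not analysed here.

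MHC class I molecules display peptides from inside the cell to CD8+ T cells and consist of a heavy chain bound to β2-microglobulin. Class II molecules are pairs of an alpha and a beta chain that display peptides from endocytosed proteins to CD4+ T cells, and they are mainly made by antigen-presenting cells. Both classes can be induced by interferon γ, and mESCs are known for little MHC class I on their surface and for a weak response to interferon. *Xaf1* encodes XIAP-associated factor 1, which binds the caspase inhibitor XIAP and counteracts it, and it is itself induced by interferon in many cells.

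The promoters of the members are shown first, because interferon and MHC regulation act through short motifs in them. RefSeq promoter sequences on GRCm38.p6 were matched by symbol for 4 of the 5 members, and not for *H2-Ab1*. Each run below covers 250 bases before and 30 bases from the start site, 5′ to 3′ on the strand of the gene. The 6 motifs searched, on both strands, were the interferon-stimulated response element (ISRE: GAAA, any 2 bases, GAAA), the IRF core AANNGAAA, which any ISRE also holds, the gamma-activated site TTCNNNGAA, the CCAAT box CCAAT, the RFX motif AGCAAC and the TATA box TATAAA. The letters were chosen after the sequences had been seen. Capitals mark every match.

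The windows are chr11:72301379-72301658 (plus strand) for *Xaf1*, chr17:34092129-34092408 (plus strand) for *H2-Oa*, chr17:35342057-35342336 (plus strand) for *H2-Q2* and chr17:37483525-37483804 (minus strand) for *H2-M2*.
Xaf1: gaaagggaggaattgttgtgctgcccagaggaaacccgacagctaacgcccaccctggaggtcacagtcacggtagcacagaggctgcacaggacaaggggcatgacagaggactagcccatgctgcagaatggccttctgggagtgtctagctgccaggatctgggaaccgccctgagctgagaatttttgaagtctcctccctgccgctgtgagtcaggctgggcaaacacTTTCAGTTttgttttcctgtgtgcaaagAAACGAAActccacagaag
H2-Oa: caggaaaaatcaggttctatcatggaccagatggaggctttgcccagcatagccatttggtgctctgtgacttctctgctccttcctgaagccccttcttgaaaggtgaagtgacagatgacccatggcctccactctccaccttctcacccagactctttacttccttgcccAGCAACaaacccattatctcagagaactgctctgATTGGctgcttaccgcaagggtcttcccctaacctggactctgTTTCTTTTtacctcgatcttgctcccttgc
H2-Q2: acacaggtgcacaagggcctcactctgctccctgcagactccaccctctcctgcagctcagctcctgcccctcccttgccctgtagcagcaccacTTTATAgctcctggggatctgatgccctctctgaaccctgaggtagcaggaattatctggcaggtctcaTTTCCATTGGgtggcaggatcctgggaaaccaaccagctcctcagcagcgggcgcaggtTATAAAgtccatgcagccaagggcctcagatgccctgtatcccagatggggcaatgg
H2-M2: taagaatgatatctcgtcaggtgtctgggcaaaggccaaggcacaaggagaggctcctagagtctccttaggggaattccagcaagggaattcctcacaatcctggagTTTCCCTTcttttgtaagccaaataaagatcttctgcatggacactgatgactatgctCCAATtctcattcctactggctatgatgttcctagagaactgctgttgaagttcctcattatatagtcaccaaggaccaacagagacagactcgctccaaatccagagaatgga

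An IRF core was found in all 4 of these windows, including that of *H2-M2*, the gene that was lower with Go6983. It was found in 23.1% of the 32851 windows of the same length in the RefSeq promoter table. The core of *H2-M2* was at -142, and the only one of *H2-Oa* began at position 1, so it was not upstream of the start site. *Xaf1* held 2 IRF cores, at -17 on the minus strand and at 12 on the plus strand. All positions are counted from the RefSeq start site. For *H2-Oa* (34092379) and *H2-Q2* (35342307) this site lies inside the gene as annotated in GENCODE M21, which starts at 34092340 and 35342242. The motif positions of these 2 genes therefore depend on the start site used. The ISRE, found in 3.3% of all windows, and the gamma-activated site, found in 7.8%, had no match in any of the 4 windows. *H2-Oa* had an RFX motif at -77 and a CCAAT box at -43, 34 bases apart from start to start. These are the letters of the X and Y boxes that are known from MHC class II promoters, where the RFX and NF-Y factors bind together. The RFX motif occurred in 13.7% of all windows and in none of the other 3 members. A CCAAT box, found in 36.1% of all windows, was also present in *H2-Q2* at -81, where it overlaps the IRF core at -86, and in *H2-M2* at -84. *H2-Q2* had the TATA box letters at -27 on the plus strand and at -155 on the minus strand. A match on either strand was found in 13.1% of all windows. A match is a run of letters and does not show that a factor was bound in these cells.

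Expression values below are normalized counts, that is, reads per gene divided by a size factor of the sample. Reads recovered in the listed genes numbered from 859777 to 1054236 per sample, and the total depth is unknown. The log2 difference is Go6983 minus NT on the deposited log2(normalized count + 1) scale, with the standard error (SE) from a limma fit over all listed genes. The SE borrows variance from genes that had been selected as changed, so it may be too small. A gene is called higher or lower when the values of the groups do not overlap. By this call 69.6% of all listed genes were higher and 30.1% lower with Go6983. Since the table was chosen on this contrast, nothing is read from these shares. In RNA from bulk cells, fewer cells of a type and less RNA per cell cannot be told apart.

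At the RNA level, the only level analysed here, *Xaf1* was higher with Go6983. Its normalized count was 379 and 457 untreated and 1007 and 1172 with Go6983. The groups did not overlap, and the lowest Go6983 sample was 1.14 log2 units above the highest NT sample, while replicates lay 0.27 (NT) and 0.22 (Go6983) apart. Untreated cells averaged 418 ± 55.0 and treated cells 1089.7 ± 117 (SD, n = 2 each), a 2.61-fold difference. The log2 difference was 1.38 (SE 0.15), and it ranked 591 from the largest among the listed genes. *Xaf1* (ENSMUSG00000040483) lies on the plus strand of chromosome 11 of GRCm38 from 72301629 to 72313733. No other annotated gene overlaps it.

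The MHC class II members were also higher. *H2-Oa* encodes the alpha chain of H2-O, a class II-like molecule that does not present peptides itself and inhibits H2-DM, the catalyst of peptide loading. Its normalized count was 31.8 and 33.7 untreated and 94.3 and 94.2 with Go6983. The Go6983 samples were nearly equal and both far above the NT samples. The means were 32.8 ± 1.34 and 94.2 ± 0.064 (SD, n = 2 each), and the log2 difference was 1.496 (SE 0.25). The SD of the Go6983 samples is below what counting alone would give for the 101 and 88 reads behind them, so it is no measure of precision.

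*H2-Ab1* encodes the beta chain of the classical class II molecule I-A. Its normalized count was 97.5 and 109 untreated and 249 and 222 with Go6983. The groups were 1.01 log2 units apart at their nearest samples, while samples of a group differed by 0.16 and 0.17. The means were 103 ± 8.39 untreated and 235 ± 19.6 with Go6983 (SD, n = 2 each), with a log2 difference of 1.18 (SE 0.17). Class II genes are markers of antigen-presenting cells. The 9 leukocyte markers of the list, including *Ptprc*, were all without a row and were not analysed here. A missing row does not show that a gene was not expressed, so the presence of antigen-presenting cells was not tested. Of the 6 mESC markers, *Nanog* and *Klf4* were in the table, and both were higher with Go6983. *Nanog* had means of 16447 ± 643 and 34286 ± 977 normalized counts, and *Klf4* 7009.9 ± 303 and 14163 ± 566 (SD, n = 2 each), with log2 differences of 1.06 (SE 0.092) and 1.01 (SE 0.092).

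*H2-Q2*, a nonclassical class I gene of the Q region, was higher with Go6983 by the smallest margin. Its normalized count was 79.6 and 131 untreated and 216 and 218 with Go6983. The Go6983 samples were close to each other, and the NT samples differed by 0.71 log2 units, about as much as the 0.72 units between the higher NT sample and the lower Go6983 sample. The log2 difference was 1.08 (SE 0.27). Leaving out NT replicate 2 gave 1.44, and leaving out NT replicate 1 gave 0.73.

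*H2-M2*, a nonclassical class I gene of the M region, was the only member that was lower. It had 17 and 5 reads in the NT samples and 0 in both Go6983 samples. In normalized counts the NT samples stood at 16.9 and 5.11, more than 3-fold apart, and the Go6983 samples at 0. With a floor of 3 counts per library, the mean of the NT samples was at least 3.66-fold higher. This bound allows for counting error in the Go6983 samples only, takes the NT mean as measured, and rests on 22 reads in all. In a check added after seeing the data, it was 1.70-fold without NT replicate 1 and 5.62-fold without NT replicate 2. The fitted log2 difference of -3.39 (SE 0.56) depends on the added 1 and is no measure of size. By mean log2 value, 3.0% of the listed genes were below *H2-M2*.

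**Figure D1:**
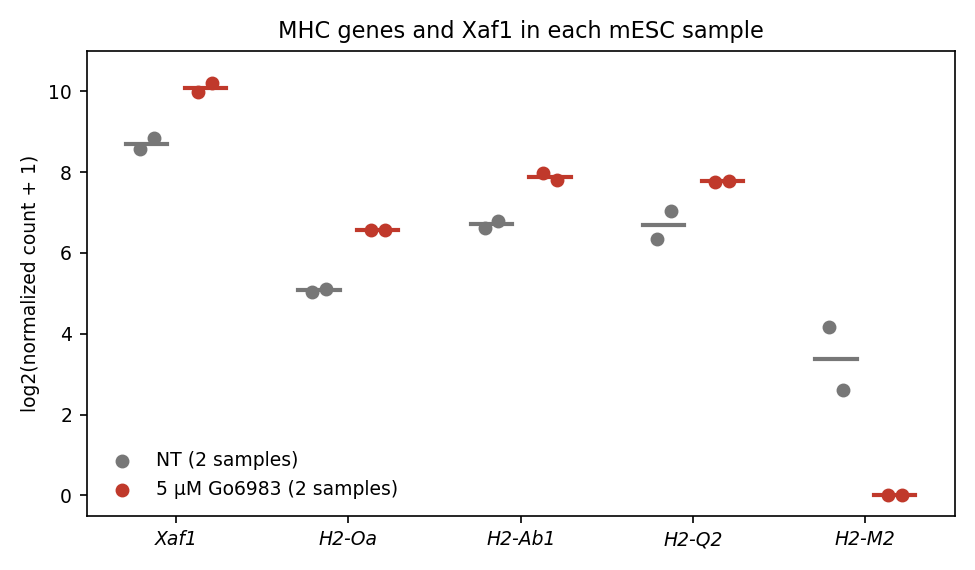
Expression of the 5 members on the log2(normalized count + 1) axis, untreated in grey and Go6983 in red, with 1 point per sample and a line at each group mean. As deposited, the Go6983 samples lie above the NT samples for *Xaf1*, *H2-Oa*, *H2-Ab1* and *H2-Q2*, and at 0, below both NT samples, for *H2-M2*.

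By H2- symbol, 3 of the 4 genes were higher, beside the 69.6% of all listed genes, and 1 was lower, beside the 30.1%. The median log2 difference was 1.13 over the 4 H2- genes, also with *H2-M2* set at its bound, and 1.21 over all 1577 listed genes. By rank among the listed genes from the largest log2 difference down, *H2-Oa* was 483, *Xaf1* 591, *H2-Ab1* 837 and *H2-Q2* 973. *H2-M2* is given no rank, since its fitted difference depends on the added 1. Scaling libraries to their median ratio instead, which centres the selected list by construction and moved the differences by a median of -1.10, gave *H2-Q2* a log2 difference of -0.034, and 1 of the 4 H2- genes was still higher.

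Per kilobase of exon, *Xaf1* had the highest level, with means of 89.1 normalized counts per kb untreated and 232 with Go6983 (n = 2 each). In NT cells *H2-Q2* followed at 48.2 and *H2-Ab1* at 40.3 normalized counts per kb. These neighbours did not differ beyond their spread, since the *H2-Q2* samples stood at 36.5 and 59.97 and the *H2-Ab1* samples at 38.0 and 42.6. *H2-Oa* came next at 23.3 and *H2-M2* last at 7.10 normalized counts per kb. In Go6983-treated cells the order was the same, with *H2-Q2* at 99.5, *H2-Ab1* at 91.7 and *H2-Oa* at 67.0 normalized counts per kb.

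Class I genes of the H2 family resemble each other, so reads may be split between copies. Of the 50-base words in the transcripts of *H2-Q2*, 16.1% also occur in transcripts of other genes, most of them in *H2-Q1*, and of the 100-base words 5.1% do. For *H2-M2* and *Xaf1* the share was 1.6% at 50 bases and 0 at 100, and for *H2-Ab1* it was 0 at both lengths. *H2-Oa* shared 15.5% of its 50-base words with *BC051537*, an antisense gene whose exons overlap it and which was not in the table. Whether the library or the counting kept strands apart is not given in the sources used here. Reads in the stretch that this pair shares therefore cannot be told apart. The read length is also not given, and how reads with several matches were handled was not tested.

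The table held 2 further H2- genes that are annotated as pseudogenes and are no members. *H2-Bl*, a polymorphic pseudogene on chromosome 17, had 214 and 269 normalized counts untreated and 541 and 505 with Go6983, a log2 difference of 1.12 (SE 0.16). *H2-T-ps*, an unprocessed pseudogene, had 11.9 and 14.3 normalized counts untreated and 28.0 and 32.1 with Go6983. Both were higher in each Go6983 sample than in either NT sample. *H2-T-ps* shared 29.4% of its 50-base words with other genes and *H2-Bl* 9.6%, in both cases most with *H2-T23*, a class I gene with no row in the table. *H2-T-ps* also overlaps exons of *Gm7030* on the same strand.

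The 4 H2- members lie within 3.39 Mb of chromosome 17 of GRCm38, from 34092340 to 37483552. *H2-Oa* (ENSMUSG00000024334) spans 34092340 to 34095234, *H2-Ab1* (ENSMUSG00000073421) 34257689 to 34269419 and *H2-Q2* (ENSMUSG00000091705) 35342242 to 35346762, all on the plus strand. *H2-M2* (ENSMUSG00000016283) spans 37480851 to 37483552 on the minus strand. The table held 17 genes of this interval, of which 14 were higher and 3 lower. Of the 13 that are no members, 11 were higher (84.6%, beside 69.6% of all listed genes) and 2 lower. The 11 include the H2- pseudogenes *H2-Bl* and *H2-T-ps*, so they are not all unrelated to the members. They also include *Gm10499* and *Gm8909*, which were at 0 in both NT samples. Their calls rest on few reads in the Go6983 samples, 33 and 2 for *Gm10499* and 5 and 13 for *Gm8909*. Whether these genes are related in sequence to the members was not tested. The lower ones were the antisense gene *Gm10501*, at 67.0 ± 3.71 normalized counts untreated and 8.81 ± 3.38 with Go6983, and *Mucl3*, at 60.1 ± 8.99 and 26.8 ± 3.05 (SD, n = 2 each). The higher genes included ones with other roles, such as *C2*, which encodes a complement component, at 98.5 ± 28.3 normalized counts untreated and 331 ± 34.8 with the inhibitor.

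**Figure D2:**
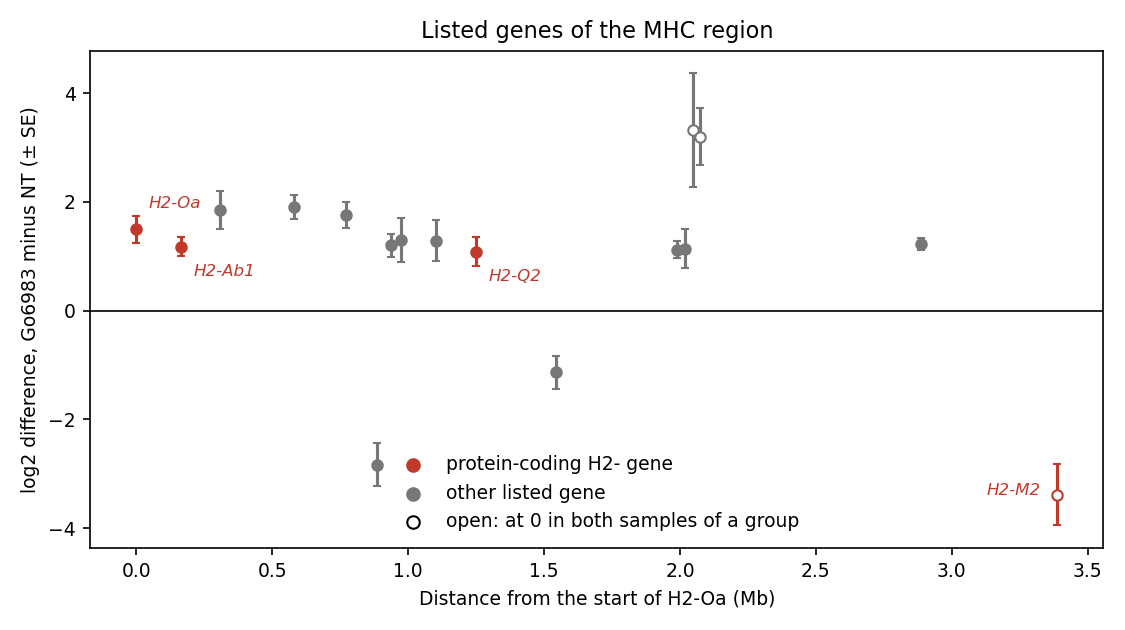
The log2 difference between Go6983-treated and NT cells (± SE) of the 17 listed genes of the interval, against the distance from the start of *H2-Oa* in Mb. H2- members are red and other listed genes grey, and open points are genes at 0 in both samples of a group, whose fitted difference depends on the added 1. In the interval 14 points lie above the zero line and 3 below it.

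Of the genes that act with the MHC, both higher and lower ones were in the table. From 51 annotated genes of peptide loading, class II processing, MHC regulation and MHC-like molecules, 5 were listed, of which 4 were higher and 1 lower, beside 69.6% and 30.1% of all listed genes. Their median log2 difference was 1.03, beside 1.21 for all listed genes. *B2m*, which encodes β2-microglobulin, the light chain of class I molecules, had 1145 and 1364 normalized counts untreated and 2468 and 2641 with Go6983. Its log2 difference was 1.03 (SE 0.12), just above the limit of the table. *Psmb10*, which encodes a catalytic subunit of the immunoproteasome, was lower, with 372 and 378 normalized counts untreated and 160 and 124 with Go6983. *B2m* and *Psmb10* share no words of 50 bases with other genes.

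*Irf2*, a transcription factor gene of the interferon regulatory family, had 23.9 and 46.0 normalized counts untreated and 58.8 and 79.2 with Go6983. The MHC-like genes *Ulbp1*, a ligand of the activating receptor NKG2D, and *Mill2* had log2 differences of 1.25 (SE 0.35) and 1.68 (SE 0.43). The Go6983 samples of *Ulbp1* stood far apart, at 498 and 272 normalized counts, but above the NT samples at 193 and 124. *Mill2* had few reads, with 7.03 ± 2.72 normalized counts untreated and 24.1 ± 3.74 with Go6983 (SD, n = 2 each). None of the 7 class II processing genes had a row, among them *Cd74*, the invariant chain. *Ciita* and *Nlrc5*, the transactivators of class II and class I genes, had none either, and these genes were not analysed here.

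From 142 annotated genes of interferon ligands, receptors, signal transducers, regulatory factors, nucleic acid sensors and interferon-stimulated genes, 9 were listed. Of these, 6 were higher (66.7%) and 3 lower, near the 69.6% and 30.1% of all listed genes, with a median log2 difference of 1.21 beside 1.21. None of the 21 interferon ligand genes had a row in the table, and they were not analysed here. *Il10rb*, which encodes a receptor chain shared by interferon λ and interleukin-10, had 68.6 and 67.4 normalized counts untreated and 167 and 149.9 with Go6983. *Irf5*, an interferon regulatory factor gene, had 121 ± 12.3 normalized counts untreated and 282 ± 24.3 with Go6983 (SD, n = 2 each).

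Of the 82 interferon-stimulated genes 6 were listed, with 4 higher and 2 lower, which is near the shares of 69.6% and 30.1% in the whole table. *Zc3hav1*, the zinc finger antiviral protein gene, had the highest level of them per kb of exon, and had 921 and 1042 normalized counts untreated and 2008 and 2240.3 with Go6983. *Mx1*, *Gbp7* and *Phf11b* were higher with Go6983 from NT means of 18.2 or fewer normalized counts, with log2 differences of 1.85 (SE 0.39), 2.21 (SE 0.37) and 1.35 (SE 0.44). *Mx1* encodes a dynamin-like antiviral GTPase and *Gbp7* a guanylate-binding protein. *Irgm1*, an immunity-related GTPase gene, was lower, with 275 and 243 normalized counts untreated and 71.9 and 81.3 with Go6983, a log2 difference of -1.75 (SE 0.18). *Tgtp1*, another such GTPase gene, was lower as well, at -1.84 (SE 0.37), but 81.2% of its 50-base words occur in other genes, mainly in its near copy *Tgtp2*, so its value is uncertain. The nucleic acid sensor gene *Zbp1* was lower, at 28.8 and 52.1 normalized counts untreated and 16.8 and 11.8 with Go6983. *Phf11b* shared 47.0% of its 50-base words with other genes.

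Of the 25 genes in the list of *Xaf1* partners and the inhibitor of apoptosis (IAP) family, 2 were in the table and both were higher, as were 69.6% of all listed genes. *Naip6* had a log2 difference of 1.21 (SE 0.41) and *Naip5* one of 2.28 (SE 0.52). These encode sensors of bacterial proteins that carry the BIR domain of the family. They are close copies, and 21.5% of the 50-base words of *Naip6* and 36.9% of those of *Naip5* occur in other genes. *Xiap* itself had no row in the table and was not analysed here.

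**Figure D3:**
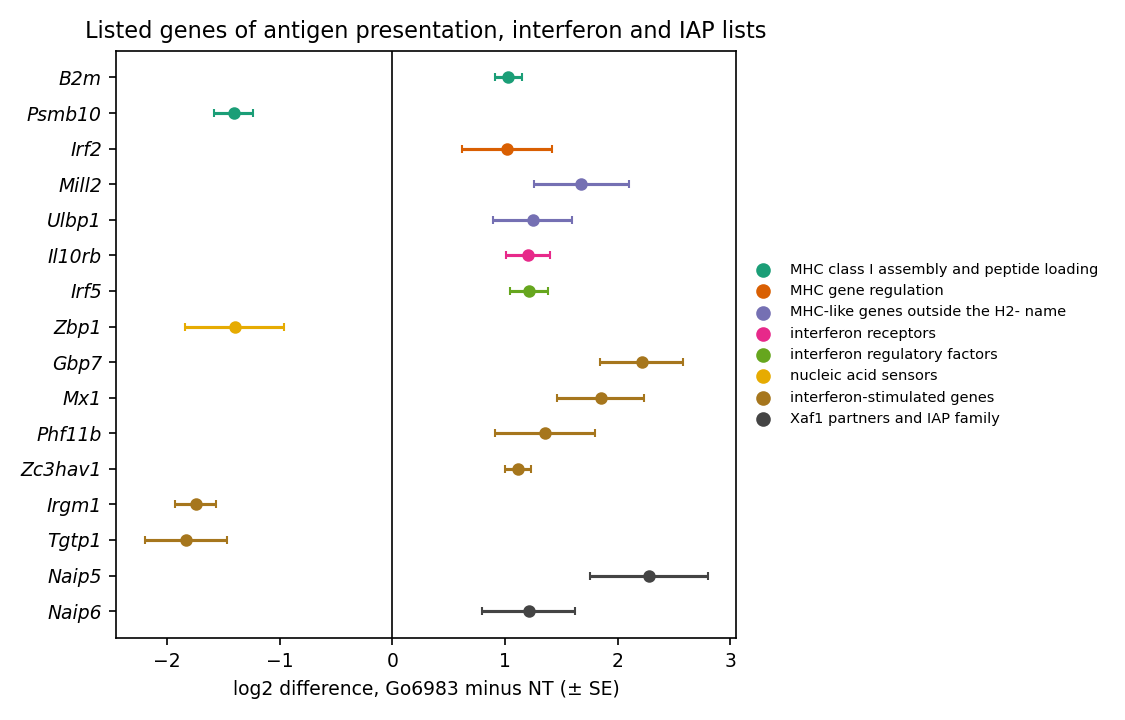
The log2 difference between Go6983-treated and NT cells (± SE) of the listed genes of antigen presentation, interferon and IAP lists, coloured by list. *Psmb10*, *Zbp1*, *Irgm1* and *Tgtp1* lie left of zero (lower with Go6983), and the other genes lie right of it.

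The genes most like a member in their pattern were found by the root mean square difference of log2 values over the 4 samples, each gene centred on its own mean, among the 894 genes whose mean reached 50 normalized counts. For *Xaf1* these were *Lonrf3*, *Ngef* and *Fabp3*, with differences of 0.015, 0.027 and 0.035 log2 units. *Lonrf3* had 84.8 ± 10.2 normalized counts untreated and 222 ± 20.1 with Go6983, and *Fabp3*, a fatty acid binding protein gene, had 3723 ± 386 and 10088 ± 1242 (SD, n = 2 each). For *H2-Ab1*, the H2- member with the highest mean, they were *Irf5* at 0.022, *9330182L06Rik* at 0.024 and *Gm20708* at 0.036 log2 units. With 4 samples in 2 groups, such a likeness says little beyond a log2 difference and replicate deviations of about the same size.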

How the data were processed

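The data were RNA-sequencing libraries of 46C mESCs, 2 untreated and 2 exposed for 24 h to Go6983 at 5 μM. The authors deposited a log2 value per gene and sample, group means, a log2 fold change and p-values. Their p-values were read only to test how the table had been selected, and their fold changes were not used. Bowtie 0.12.2 and the build mm9 are given in the submitters' processing notes. The read counter and annotation are not named in the sources used here. The study's figure legends speak of FPKM, but the deposited values have a common step for all genes whatever their length, so they are treated here as normalized counts. After undoing the log2 and an added 1, 100% of the deposited values in a sample were whole multiples of a common step (tolerance 0.05 reads), which gave the size factors and reads. R 4.3.3 and limma 3.58.1 (lmFit, then eBayes with a trend) gave the differences over the 1577 genes on the deposited log2 values, without a filter, and only the difference and its SE were used. The fit was also run on simulated counts in which most genes were unchanged, unlike the selected genes here, so that run is no check of the SEs. Gene IDs matched GENCODE M21 on GRCm38 for 1572 genes. The table holds no coordinates.

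Every member was named, as was every listed gene of the 11 pathway and family lists. The listed genes of 5 marker lists were counted, and beyond *Nanog* and *Klf4* these held *Col1a2*, which was higher (log2 difference 1.13), and *Kdr*, which was lower (-1.17), with no trophoblast marker. *C2*, *Gm10501*, *Mucl3*, *Gm10499*, *Gm8909*, *H2-Bl* and *H2-T-ps* were named after their values were seen. The members and lists were chosen with earlier results of these data known. Between replicates the chi-square per gene was 10.5 (NT) and 7.36 (Go6983), above counting error. Alternatives were other pseudocounts, scalings and filters, omission of single replicates, a replicate block and limma-voom on the recovered reads.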

Additional observations from a re-analysis of the deposited data

How the results depend on the processing

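The members were selected for their difference and their groups do not overlap, so leaving out a replicate or changing the pseudocount could not turn a direction, and kept directions are no sign of stability. The differences of *H2-Oa* and *H2-Ab1* were 1.37 and 1.05 after scaling to the total reads in the listed genes. The listed genes were selected on this contrast, so that scaling is no independent check. At a pseudocount of 10 the difference of *H2-Oa* was 1.28. *H2-M2* went from -6.56 at a pseudocount of 0.1 to -1.01 at 10, was -4.30 with limma-voom, and ranged from -4.16 to -2.61 with a replicate left out. With median-ratio scaling, which centres the selected list, the differences were 0.26 for *Xaf1*, 0.39 for *H2-Oa*, 0.064 for *H2-Ab1* and -0.034 for *H2-Q2*. Under it 1 H2- gene was higher and their median was 0.015, and over all listed genes 557 were higher and 499 lower. At a mean of at least 50 normalized counts 0 H2- genes were lower, since *H2-M2* was left out.

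Same-numbered samples deviated from their group means with a correlation of 0.032 over all listed genes and 0.099 over those whose mean reached 50, so the numbers were not taken to pair the samples. With the replicate block the difference of *Xaf1* stayed at 1.38, as it must in a balanced design, with an SE of 0.095 in place of 0.15. Depth limits *H2-M2* most, with 22 reads in all.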
